A study of Canis lupus familiaris with 60 samples.

Results

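Skin under a saline patch for 6 hr was compared with untreated skin of the same 12 Beagle dogs. The comparison used 24 of the 60 arrays of the series, 12 of untreated skin taken before the patches (0 hr) and 12 of the saline site at 6 hr, and each dog gave 1 array to either side. Of the dogs, 6 had been sensitized through the skin to the house dust mite Dermatophagoides farinae and 6 had not, and all were 2 to 3 years old. The chest of every dog had been clipped 4 days earlier. The patch held 50 µl of physiologic saline under a bandage, each dog wore a mesh suit, and every 8-mm punch was taken after 0.5 ml of 2% lidocaine, so clipping and anesthetic were common to both sides. Each dog also wore a patch with mite paste at another site of the same chest. The saline, the bandage, the time of day and the punch taken at 0 hr from the same area all separate the 2 sides and cannot be told apart. Saline sites served the study as the negative control, and the comparison asks how far they differed from skin that had no patch.

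Skin answers occlusion, scratching or a nearby wound through its resident cells. Keratinocytes, mast cells and vessel walls release chemokines, small proteins that draw leukocytes along a gradient, and the vessel wall shows adhesion molecules such as the selectins that slow passing leukocytes. Proteases then loosen the matrix, and their inhibitors restrain them. The punch holds epidermis, dermis, hair follicles and vessels, and an array of such bulk tissue cannot tell fewer cells of a type from less RNA per cell.

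Each array read 61657 spots other than controls, which held 60068 probes for 54633 identifiers. The median processed signal ran from 84.8 to 126 in untreated skin and from 83.0 to 108 at saline sites. Between 71.1% and 80.2% of spots were well above background in untreated skin (median 76.4%) and between 70.2% and 74.8% at saline sites (median 71.9%). The arrays were not spread evenly over the slides. Of the untreated arrays, 7 lay on slide 7, 4 on slide 8 and 1 on slide 6, and the saline arrays lay on slides 4 (3), 5 (5) and 6 (4). Slides 3 to 6 were scanned on 1 day and slides 7 and 8 on another, so 11 of 12 untreated arrays and none of the saline arrays came from the later scan. The dog numbered 2838, which was sensitized, was the one animal with both arrays on 1 slide. Epidermal and dermal markers (KRT1, SPINK5, COL1A2, DCN) were well above background on all 24 arrays.

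**Figure D1:**
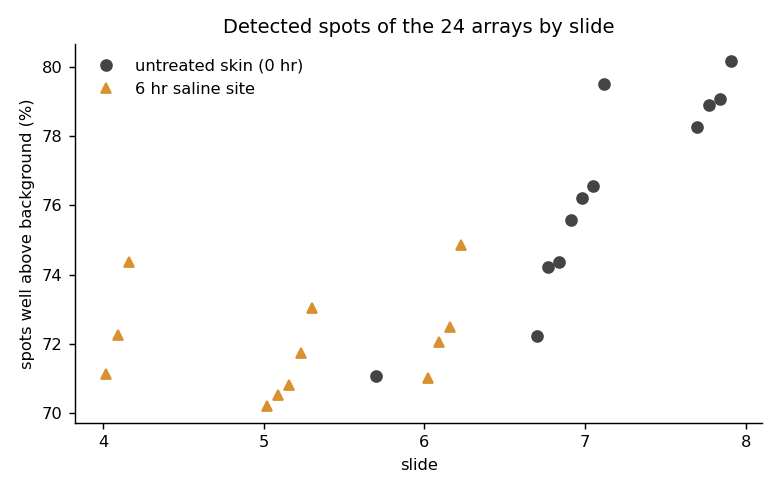
Share of spots well above background (%, vertical axis) of each of the 24 arrays by slide (horizontal axis), with untreated skin as circles and 6 hr saline sites as triangles. The 13 arrays on slides 4 to 6 had a median of 71.7% and the 11 on slides 7 and 8 a median of 76.6%.

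Values are log2 signals after variance stabilization of the 24 arrays, and a probe was called where limma, with dog as a block, gave an adjusted p (Benjamini-Hochberg) under 0.05 together with a 1.5-fold or greater change. Of 43593 probes tested, 86 were called higher at the saline site (0.197%) and 949 lower (2.18%). Small shifts were far more widespread: the adjusted p was below 0.05 for 19372 probes (44.4%), 9904 of them higher and 9468 lower. The median difference over all probes was 0.031 on the log2 scale. With quantile scaling in place of variance stabilization, 504 probes were called higher and 1722 lower. Scaling to the 75th percentile gave 3804 lower, and leaving out dog 2847 gave 188 higher. Of the probes called higher, 7 had passed the filter on dim spots through the saline side alone, and 19 of those called lower had passed through the untreated side alone.

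The counts depended on how slide entered the model. As a random block beside the dog it left 71 probes called higher and 831 lower. Over all 59 usable arrays of the series, few arrays tie slides 7 and 8, which held most untreated arrays, to the other slides. Of the 6 hr allergen arrays 3 lay on slides 7 and 8 and 9 on slides 4 to 6. A single usable 24 hr allergen array lay on slide 8, and the untreated array of dog 2838 lay on slide 6. No saline array of either time lay on slides 7 or 8. A fit over the 59 arrays with dog alone as a block called 128 probes higher and 1161 lower. With dog and slide as blocks it called 9 probes higher (0.0206%) and 4 lower (0.00918%), with a median standard error of 0.12 against 0.059 in the fit of 24 arrays without slide. With scan day in place of slide it called 29 higher (0.0665%) and 11 lower (0.0252%). The 86 probes called higher kept their direction with slide in 82 cases, and their median difference was 0.73 without and 0.54 with slide, where 4 were called again. The 949 called lower kept their direction in 834 cases, but their median went from -0.71 to -0.15 and 2 were called again. In dog 2838, whose 2 arrays shared a slide, the probes called without that dog were also set out. Of 1281 called lower in the other 11 dogs, 56.6% were higher in dog 2838 (median difference 0.027), against 51.0% of all probes. Of 115 called higher, 58.3% were higher in it (median 0.099). Slide, scan day and patch differ together in the other 11 dogs, where they cannot be told apart.

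**Figure D2:**
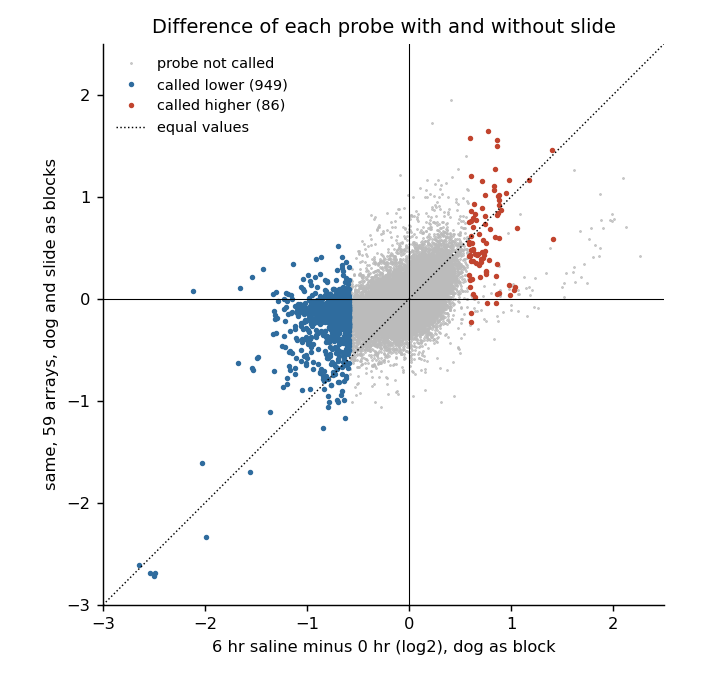
Each point is 1 of 43593 probes, with the log2 difference of 6 hr saline minus 0 hr with dog as block on the horizontal axis and the same difference from 59 arrays with dog and slide as blocks on the vertical axis. The 949 probes called lower spread around a median of -0.15 on the vertical axis, and the 86 called higher around a median of 0.54.

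Names were available for 1178 genes, 4.02% of the probes past the filter having one, and each gene is given by its brightest probe. Of these genes, 13 were called higher (1.1%) and 22 lower (1.87%). Chemokines made up a large part of the named rises: of the 27 measured genes on a list of cytokines and chemokines, 5 were called higher and none lower. The median difference of that list was 0.30 on the log2 scale, against 0.067 over all named genes. With slide as a block the list's median was 0.078, against 0.0055 over all named genes. A sixth chemokine that rose, CCL1, was not on the list. Neither was CCL25, a chemokine that was called lower (-0.75). Among the 24 called genes named here the levels of the sides overlapped between dogs in all but CCL25.

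CCL20 (NM_001005254), which draws dendritic cells and lymphocytes through the receptor CCR6, rose most. Its signal was 8.70, 9.50 and 10.38 in untreated skin and 10.18, 10.61 and 13.53 at saline sites (lowest, median and highest log2 signal, n = 12 each). It was higher at the saline site in 12 of 12 dogs. The mean difference was 1.41 ± 0.29 (SE, n = 12; adjusted p = 0.00125), or 2.66-fold. Dog 2716, a nonsensitized animal, differed by 4.83, far beyond the others, and without it the CCL20 difference was 1.10 (adjusted p = 6.58e-05). The slide-block difference was 0.59 ± 0.61 (adjusted p = 0.806), and dog 2838 differed by 0.38.

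CCL2 (NM_001003297) and CCL13 (NM_001003966) are monocyte-attracting chemokines that share the receptor CCR2. The CCL2 signal was 9.71, 10.27 and 11.39 in untreated skin against 10.76, 11.22 and 13.51 at saline sites. It rose by 1.03 ± 0.28 (SE, n = 12; adjusted p = 0.00824) and was higher in 10 of 12 dogs, the exceptions being the sensitized dogs 2838 (-0.0047) and 2840 (-0.22). For CCL2 the slide-block difference was 0.088 ± 0.57 (adjusted p = 0.976). CCL13 was dimmer and steadier: its signal was 5.13, 5.81 and 6.19 in untreated skin against 6.13, 6.64 and 7.26 at saline sites. It rose in 12 of 12 dogs by 0.88 ± 0.12 (SE, n = 12; adjusted p = 7.77e-05). The CCL13 difference kept its size with slide as a block, at 0.92 ± 0.25 (adjusted p = 0.18), and with scan day as a block it was called (1.05, adjusted p = 0.0267). Dog 2838 differed by 0.49.

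CCL24 (NM_001003967), or eotaxin-2, draws eosinophils through CCR3. Its signal was 5.57, 6.17 and 6.97 in untreated skin against 5.85, 6.94 and 7.96 at saline sites, and it was higher in 12 of 12 dogs. The difference was 0.61 ± 0.093 (SE, n = 12; adjusted p = 0.00017), which is 1.52-fold and close to the fold limit, so that leaving out dog 2704, 2845 or 2853 brought it below 1.5-fold. It was larger with slide as a block, 1.21 ± 0.33 (adjusted p = 0.18), and dog 2838 differed by 0.50. CCL19 (NM_001005256), which guides dendritic cells and naive T cells through CCR7, had a signal of 7.45, 8.51 and 8.94 in untreated skin against 7.86, 9.23 and 9.80 at saline sites. It rose by 0.74 ± 0.17 (SE, n = 12; adjusted p = 0.00322), was higher in 10 of 12 dogs, and gave 0.73 ± 0.34 (adjusted p = 0.53) with slide as a block and 0.018 in dog 2838. CCL1 (NM_001005252), a ligand of CCR8 made by activated T cells and mast cells, had a signal of 4.90, 5.32 and 6.30 in untreated skin against 5.54, 5.91 and 8.32 at saline sites. It rose by 0.84 ± 0.16 (SE, n = 12; adjusted p = 0.000701) in 11 of 12 dogs. Its difference was 0.61 ± 0.38 (adjusted p = 0.641) with slide as a block and -0.044 in dog 2838, the exception.

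Other listed factors stayed under the fold limit. CCL27, a chemokine of keratinocytes that attracts skin-homing T cells, was higher by 0.34 (adjusted p = 0.0188) and CXCL16, the ligand of CXCR6, by 0.34 (adjusted p = 0.00238). IL18BP, a secreted inhibitor of interleukin 18, differed by 0.054 (adjusted p = 0.744). In all, 14 of the 27 listed genes were higher at an adjusted p below 0.05 and 3 lower, where 44.4% of all probes passed that limit in 1 direction or the other. CCL25 (NM_001005259), a ligand of CCR9 known from thymus and gut and not on the list, fell. Its signal was 5.95, 6.52 and 6.76 in untreated skin against 5.56, 5.73 and 5.90 at saline sites, without overlap between the sides, and the difference was -0.75 ± 0.069 (SE, n = 12; adjusted p = 1.29e-05) with 12 of 12 dogs lower. In dog 2838 CCL25 differed by only -0.093, and with slide as a block by -0.20 ± 0.10 (adjusted p = 0.556).

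**Figure D3:**
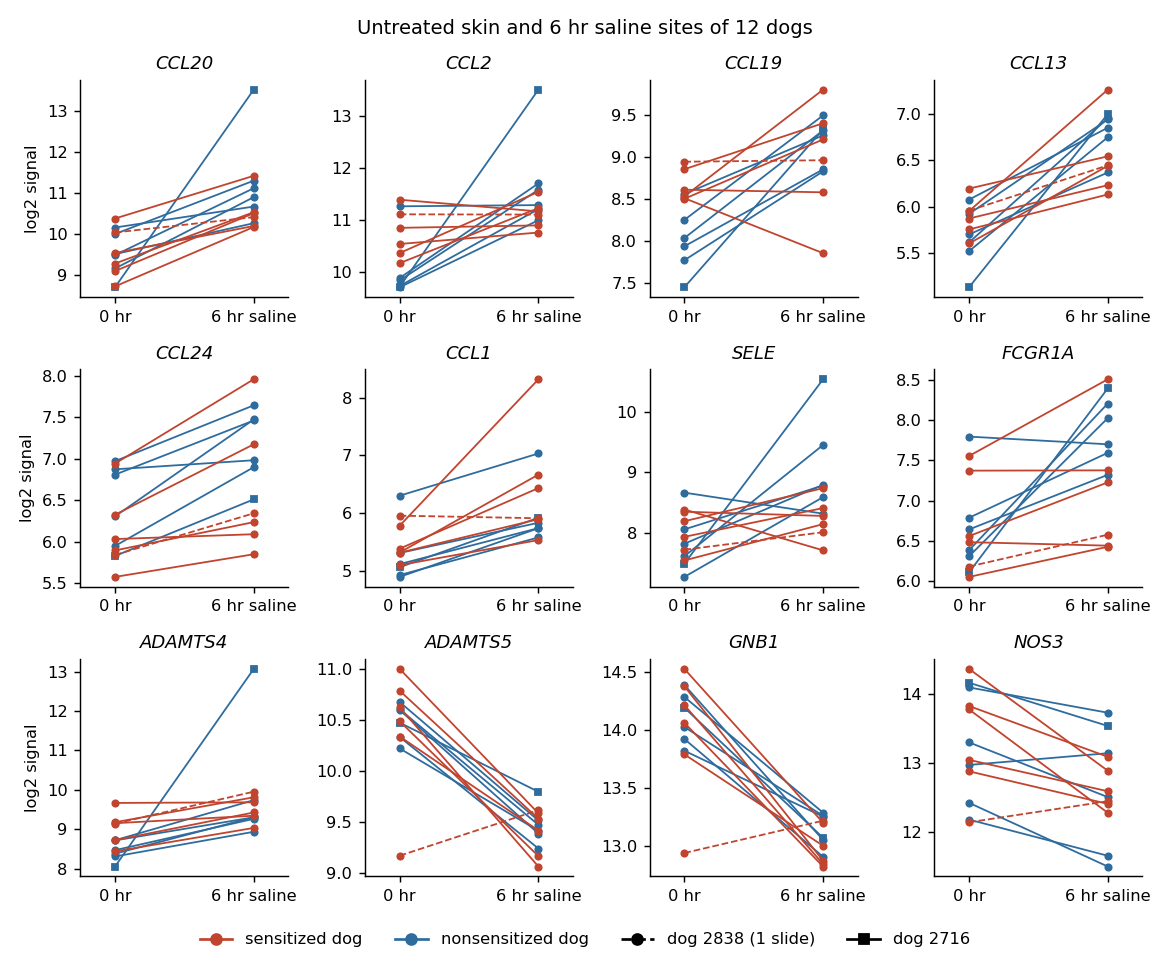
Log2 signal of 12 genes (vertical axes) in untreated skin and at the 6 hr saline site, with 1 line per dog, sensitized dogs in red and nonsensitized in blue. Dog 2838 (dashed) has both arrays on 1 slide and dog 2716 (squares) has the steepest rises of CCL20 and ADAMTS4. The falls of ADAMTS5, GNB1 and NOS3 are seen in most dogs but not in dog 2838.

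SELE, FCGR1A and ADAMTS4 each rose as the only called rise of their list (vessel wall, macrophages, wound and matrix). SELE (NM_001003310), the E-selectin of activated endothelium, had a signal of 7.27, 7.87 and 8.66 in untreated skin against 7.71, 8.50 and 10.54 at saline sites. It rose by 0.73 ± 0.25 (SE, n = 12; adjusted p = 0.0274) but was higher in only 9 of 12 dogs, and its second probe differed by -0.11. Without dog 2800 or 2802 its adjusted p was 0.0596 or 0.0548, and without dog 2716 its difference of 0.52 was under the fold limit. FCGR1A (NM_001002976), the high-affinity IgG receptor of monocytes and macrophages, had a signal of 6.06, 6.52 and 7.79 in untreated skin against 6.43, 7.49 and 8.51 at saline sites. FCGR1A rose by 0.80 ± 0.19 (SE, n = 12; adjusted p = 0.00406) in 10 of 12 dogs. SELE gave 0.40 ± 0.51 (adjusted p = 0.847) and FCGR1A 0.69 ± 0.60 (adjusted p = 0.762) with slide as a block. Of 7 measured macrophage genes FCGR1A alone was called, and other bright members did not pass the test: CD163 differed by 0.14 (adjusted p = 0.309), MRC1 by 0.26 (adjusted p = 0.0968) and CD209 by 0.17 (adjusted p = 0.376). MS4A7, also on that list, was lower by 0.23 (adjusted p = 0.0495) and under the fold limit.

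ADAMTS4 (TC69822) and ADAMTS5 (ENSCAFT00000013627) are related proteases that cut the proteoglycan aggrecan, and they changed in opposite directions. Both names came from the list of genes that the study chose on these same samples, as did those of UPP1 and TIFAB. The ADAMTS4 signal was 8.05, 8.72 and 9.67 in untreated skin against 8.94, 9.39 and 13.07 at saline sites. ADAMTS4 rose by 0.99 ± 0.32 (SE, n = 12; adjusted p = 0.0206) in 12 of 12 dogs. Much of that mean came from dog 2716, which differed by 5.02, and without it the difference was 0.63 (adjusted p = 0.000125). The ADAMTS5 signal was 9.17, 10.54 and 11.00 in untreated skin against 9.06, 9.44 and 9.80 at saline sites. ADAMTS5 fell in 11 of 12 dogs with a difference of -1.01 ± 0.13 (SE, n = 12; adjusted p = 5.51e-05), while dog 2838 was 0.45 higher. Both differences were near 0 with slide as a block, at 0.033 for ADAMTS4 and -0.11 for ADAMTS5. Of the 14 measured genes of the list for wounded keratinocytes and matrix, ADAMTS4 alone was called. TIMP1, an inhibitor of matrix proteases, differed by 0.38 (adjusted p = 0.0517), PTGES, a prostaglandin E synthase, by 0.29 (adjusted p = 0.0106) and TIMP2 by 0.10 (adjusted p = 0.194).

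UPP1 (ENSCAFT00000022665), uridine phosphorylase, rose by 0.68 ± 0.15 (SE, n = 12; adjusted p = 0.00205) in 11 of 12 dogs. CASP4 (NM_001003125), an inflammatory caspase that senses bacterial lipopolysaccharide, rose by 0.61 ± 0.12 (SE, n = 12; adjusted p = 0.000754) in 11 of 12. TIFAB (XM_538636.2) rose by 0.63 ± 0.075 (SE, n = 12; adjusted p = 3.31e-05) in all 12 dogs, and its signal was 5.12, 5.45 and 5.69 in untreated skin against 5.69, 6.09 and 6.66 at saline sites. UPP1 without dog 2716 (0.56) and CASP4 without dog 2716 or 2800 (0.51 and 0.56) were under the fold limit. Of these 3 genes TIFAB changed least with slide as a block, to 0.71 ± 0.28 (adjusted p = 0.451). UPP1 was then 0.33 and CASP4 0.48.

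On the lists for granulocytes, T cells and mast cells, CD4 alone was called. Of all 1178 named genes, 13 were called higher and 22 lower. None of the 5 measured granulocyte genes was called. BPI, an antibacterial protein of neutrophils named after its value was seen, was higher by 0.15 (adjusted p = 0.0369). The calgranulin S100A8 differed by 0.26 (adjusted p = 0.478), the gelatinase MMP9 by 0.47 (adjusted p = 0.154) and the neutrophil elastase ELANE by -0.057 (adjusted p = 0.421). S100A8 spread widely, from -2.37 in dog 2847 to 2.00 in dog 2716. Of 6 T cell genes, CD4 (NM_001003252) fell by 0.60 ± 0.082 (SE, n = 12; adjusted p = 7.52e-05), with a signal of 6.36, 7.13 and 7.38 in untreated skin against 6.27, 6.47 and 6.62 at saline sites. Without dog 2802, 2840 or 2855 it was under the fold limit (-0.57, -0.56 and -0.58). The CD4 difference was 0.011 ± 0.12 (adjusted p = 0.987) with slide as a block and in dog 2838 it was 0.17. CTLA4 was higher by 0.23 (adjusted p = 0.0128), and CD8A and LCK differed by -0.10 (adjusted p = 0.0884) and 0.14 (adjusted p = 0.114). The alpha and beta chains of the mast cell IgE receptor, FCER1A at 0.23 (adjusted p = 0.0658) and MS4A2 at 0.24 (adjusted p = 0.0496), were not called. Of 7 genes on the mast cell list 3 were higher and 1 (the ligand KITLG) lower at an adjusted p below 0.05, where 322 and 237 of all 1178 named genes were. The part of leukocyte markers in the chemokine rises was not tested.

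Of 12 measured regulators of cytokine signaling, 4 were higher at an adjusted p below 0.05, a share near that of all named genes (322 of 1178), and none was called, with a list median of 0.18 that was -0.13 with slide as a block. NFKB1 was higher by 0.18 (adjusted p = 0.0209), STAT3 by 0.22 (adjusted p = 0.00552) and the lipopolysaccharide receptor TLR4 differed by 0.07 (adjusted p = 0.518). Of 7 measured genes induced by interferon, 5 were higher and 1 lower at an adjusted p below 0.05, none past the fold limit, and the list median was 0.34 without and 0.35 with slide as a block. The antiviral gene OAS2 was higher by 0.45 (adjusted p = 0.0288), of which dog 2800 gave 2.16 (the difference without it was 0.29). The immunoproteasome subunits PSMB9 and PSMB10 were higher by 0.33 (adjusted p = 0.00278) and 0.34 (adjusted p = 0.000456). In dog 2838 the median of the 7 genes was -0.069.

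Of 18 measured barrier genes of the epidermis, 7 were higher at an adjusted p below 0.05, none lower and none called, where 322 of all 1178 named genes were higher. Their median was 0.20. Keratin KRT1 of the upper epidermis was higher by 0.35 (adjusted p = 0.0125), whereas the protease inhibitor SPINK5 and the cornified envelope protein PPL differed by 0.074 (adjusted p = 0.33) and 0.10 (adjusted p = 0.134). The barrier median was -0.031 with slide as a block, and in dog 2838 it was -0.37. The 2 measured genes of basal keratinocytes, COL7A1 and KRT15, differed by -0.21 (adjusted p = 0.0357) and -0.11 (adjusted p = 0.191) and were not called. Among 12 genes for heat shock and endoplasmic reticulum stress 6 were higher at an adjusted p below 0.05 and none was called. The chaperone partner SDF2L1 was higher in 12 of 12 dogs, by 0.37 (adjusted p = 0.000324), and by 0.35 with slide as a block. The small chaperone HSPB1 differed by 0.13 (adjusted p = 0.0477) and HSP90B1 by 0.013 (adjusted p = 0.825).

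Among the falls, several were smallest, or absent, in dog 2838. GNB1 (NM_001003236), a beta subunit of G proteins, had a signal of 12.94, 14.13 and 14.53 in untreated skin against 12.82, 13.06 and 13.29 at saline sites. It fell by 0.98 ± 0.12 (SE, n = 12; adjusted p = 4.33e-05) in 11 of 12 dogs, while in dog 2838 it was 0.28 higher, and with slide as a block the difference was 0.0058. Its 4 probes did not agree and ranged from -1.15 to 0.17. PPP1R2 (NM_001113168), an inhibitor of protein phosphatase 1, fell by 0.96 ± 0.10 (SE, n = 12; adjusted p = 1.75e-05) in 12 of 12 dogs. ADORA3 (NM_001003178), the adenosine A3 receptor, fell by 0.81 ± 0.091 (SE, n = 12; adjusted p = 2.36e-05) in 12 of 12. Slide-block differences were -0.19 and -0.22, and dog 2838 had -0.19 and -0.13, the smallest falls of the 12 dogs for both.

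ITGA2B (NM_001003163), the platelet integrin, fell by 0.72 ± 0.10 (SE, n = 12; adjusted p = 6.01e-05) in 12 of 12 dogs. NOS3 (NM_001003158), the nitric oxide synthase of endothelium, had a signal of 12.14, 13.17 and 14.37 in untreated skin against 11.49, 12.55 and 13.73 at saline sites. NOS3 fell by 0.62 ± 0.14 (SE, n = 12; adjusted p = 0.0023), and 3 of its 4 probes were lower. NOS3 was lower in 10 of 12 dogs, and dogs 2838 and 2704 were 0.31 and 0.17 higher. Without dog 2841 or 2855 its difference (-0.54 and -0.54) was under the fold limit. Of the 8 measured vessel genes only SELE and NOS3 were called. VWF differed by -0.43 (adjusted p = 0.000689), KDR by 0.41 (adjusted p = 0.0018) and ICAM1 by 0.11 (adjusted p = 0.603). CYP2A7 and CYP2A13 fell, with differences of -0.75 (adjusted p = 0.0144) and -0.72 (adjusted p = 0.0137), and since these cytochromes are near-identical copies their values are uncertain, as the probes may share transcripts. In dog 2838 both were higher, by 1.11 and 1.00. The slide-block differences were -0.37 for ITGA2B, -0.23 for NOS3, -0.10 for CYP2A7 and -0.12 for CYP2A13. OR2F1, annotated as an olfactory receptor, fell by 0.78 ± 0.10 (SE, n = 12; adjusted p = 6.38e-05), and it kept -0.56 ± 0.26 (adjusted p = 0.53) with slide as a block.

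Of 7 measured genes on the melanocyte list, 6 were lower at an adjusted p below 0.05, where 237 of all 1178 named genes were, and TYRP1 alone was called. The 6 include KITLG, a ligand that the mast cell list also holds. The list median was -0.34, -0.21 with slide as a block and 0.0097 in dog 2838. TYRP1 (NM_001194966), an enzyme of melanin synthesis, had a signal of 8.68, 10.63 and 12.24 in untreated skin against 4.73, 10.14 and 11.77 at saline sites. It fell by 1.01 ± 0.32 (SE, n = 12; adjusted p = 0.0192) in 11 of 12 dogs. Dog 2845 alone differed by -4.88, and dog 2847, the exception, by 0.014. Without dog 2845 the difference was -0.65 (adjusted p = 0.000928). Its call was lost with 75th-percentile or quantile scaling and without the filter or the dog block, where the adjusted p lay between 0.0607 and 0.172. The melanosome proteins PMEL and MLANA differed by -0.39 (adjusted p = 0.00275) and -0.53 (adjusted p = 0.0293), and KITLG, the ligand of KIT, by -0.12 (adjusted p = 0.0371).

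Lists for daily rhythm, stress hormones and rapid induction gave no calls. The 3 measured clock genes differed by -0.069 (adjusted p = 0.519) for RORA, -0.065 (adjusted p = 0.386) for BHLHE41 and -0.02 (adjusted p = 0.889) for BHLHE40. Of 4 measured genes that glucocorticoids induce, MT2A differed by -0.086 (adjusted p = 0.58), CEBPD by 0.048 (adjusted p = 0.749) and HSD11B1 by -0.088 (adjusted p = 0.314). Of 3 measured immediate early genes, FOSB differed by -0.46 (adjusted p = 0.000283) and NR4A1 by -0.21 (adjusted p = 0.0149), and MYC differed by 0.27 (adjusted p = 0.09). With slide as a block FOSB was -0.011. Among 10 genes of hypoxia and oxidative stress VEGFA differed by -0.28 (adjusted p = 0.00673), ADM by -0.47 (adjusted p = 3.04e-05) and SLC2A1 by 0.38 (adjusted p = 0.000602). SOD1 and GPX1 differed by 0.019 (adjusted p = 0.834) and 0.12 (adjusted p = 0.104). The 3 measured cell cycle genes differed by 0.067 (adjusted p = 0.303) for the cyclin CCND1, 0.09 (adjusted p = 0.105) for BIRC5 and -0.24 (adjusted p = 0.0123) for TERT.

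None of the measured genes on the lists for dermal matrix, muscle, adipocytes and hair follicles was called. The 6 dermal matrix genes had a median of 0.14, with 0.20 (adjusted p = 0.287) for COL1A1, 0.091 (adjusted p = 0.508) for COL1A2 and 0.026 (adjusted p = 0.746) for DCN. VCAN was higher by 0.40 (adjusted p = 0.02565) and BGN by 0.18 (adjusted p = 0.0418). The 6 skeletal muscle genes had a median of 0.14 and no adjusted p below 0.05, and the standard error of MYL2 was 0.45 around 0.38. MYH8 differed by -0.22 (adjusted p = 0.409), DMD by 0.039 (adjusted p = 0.51), and the smooth muscle genes DES and PLN by 0.40 (adjusted p = 0.217) and 0.17 (adjusted p = 0.475). Among 4 adipocyte genes ADIPOQ differed by -0.26 (adjusted p = 0.329), CD36 by -0.27 (adjusted p = 0.0805), PPARG by -0.17 (adjusted p = 0.109) and LEP by -0.34 (adjusted p = 0.00091). The hair follicle gene KRT71 was higher by 0.39 (adjusted p = 0.0117), and by 0.88 with slide as a block, while SOX9 and MSX2 differed by -0.22 (adjusted p = 0.0249) and -0.43 (adjusted p = 0.000205). No red blood cell gene of the list had a named probe past the filter.

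Most of the changed probes carried identifiers without a gene symbol. The largest called falls were those of a probe taken over from an Affymetrix design, with -2.65 ± 0.43 (SE, n = 12; adjusted p = 0.000256), and of NM_001190926.1, with -2.54 ± 0.46 (SE, n = 12; adjusted p = 0.000579). The signal of NM_001190926.1 was 12.05, 13.18 and 15.17 in untreated skin against 6.39, 11.53 and 13.24 at saline sites. Of 12 dogs 11 had less of it, with differences from -0.47 in dog 2704 to -6.45 in dog 2800, and dog 2840 was the exception (0.33). The Affymetrix-derived probe had the same exception and the same lowest dog (0.18 and -6.09). In the slide-block fit NM_001190926.1 differed by -2.69 ± 0.71 (adjusted p = 0.157) and the Affymetrix-derived probe by -2.61 ± 0.70 (adjusted p = 0.166), and in dog 2838 by -2.13 and -2.06 in the same order. Neither was called with slide in the model, although the sizes were much the same. Among the called rises of unnamed identifiers, that of ENSCAFT00000020239 was the largest, and differences above it, up to 2.26, did not pass the test. Its signal was 8.03, 8.91 and 11.62 in untreated skin against 9.46, 10.57 and 12.07 at saline sites, it was higher in 12 of 12 dogs and the difference was 1.40 ± 0.15 (SE, n = 12; adjusted p = 1.75e-05). XM_851288 rose by 1.06 ± 0.28 (SE, n = 12; adjusted p = 0.00732) on 1 probe, while its other probe differed by -0.13.

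No named gene was among the 13 probes called with slide as a block, whose identifiers were chosen after their values were seen. ENSCAFT00000020239 was called again, at 1.46 ± 0.28 (adjusted p = 0.0231). TC50714 rose by 0.75 ± 0.073 (SE, n = 12; adjusted p = 1.52e-05) without overlap between the sides and by 0.81 ± 0.13 (adjusted p = 0.00288) with slide. XM_844068.1 rose by 0.66 and 0.78 and XM_546783 by 0.61 and 0.61, the latter under the fold limit without dog 2839 or 2847 (0.58 and 0.57). ENSCAFT00000005464 fell by 0.78 ± 0.083 (SE, n = 12; adjusted p = 1.86e-05) in 12 of 12 dogs, also without overlap, and its difference with slide was -1.01 ± 0.13 (adjusted p = 6.36e-05). XM_532873.2 fell by 0.71 ± 0.092 (SE, n = 12; adjusted p = 5.45e-05) and gave -0.99 ± 0.15 (adjusted p = 0.00138) with slide. In dog 2838 these 6 identifiers moved the same way, ENSCAFT00000020239 by 1.88, TC50714 by 0.79, XM_844068.1 by 0.41, XM_546783 by 0.41, ENSCAFT00000005464 by -0.80 and XM_532873.2 by -0.97. The other 7 identifiers were called with slide but stayed under the fold limit in the fit of 24 arrays without slide. In the fit of 59 arrays with dog alone as a block, ENSCAFT00000017519 alone of these passed the fold limit, at 0.62.

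The comparison was then made in each group of dogs. In the 6 sensitized dogs 60 probes were called higher (0.138%) and 1099 lower (2.52%), and in the 6 nonsensitized dogs 178 higher (0.408%) and 933 lower (2.14%). Tested directly, the difference between the groups gave no probe (0.0%) in limma at an adjusted p below 0.05, while 1645 of 43593 had an unadjusted p below 0.05 and the lowest adjusted p was 0.997. With slide as a block the counts were 5 in sensitized (0.0115%) and 3 in nonsensitized dogs (0.00688%). Leaving out dog 2838, which is sensitized, brought the probes called in sensitized dogs from 1159 to 2284.

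Several rises were nonetheless larger on average in the nonsensitized dogs, although none of these differences passed adjustment. The groups also differed in slide: the 3 saline arrays on slide 4 all came from nonsensitized dogs. Dog 2838, with both arrays on 1 slide, counts in the sensitized means. The paper also gives a different balance of males and females in the groups. The part of slide and sex in these differences was not tested. CCL19 differed by 0.31 ± 0.20 (SE) in sensitized and 1.18 ± 0.20 in nonsensitized dogs (unadjusted p = 0.00725, adjusted p = 0.997 in limma). The sensitized means moved with single dogs: that of CCL19 was 0.12 without dog 2853 and 0.50 without dog 2841, that of CCL2 0.22 without dog 2853, and that of SELE 0.11 without dog 2855 and 0.37 without dog 2840. The nonsensitized means of CCL2, SELE and UPP1 were 1.27, 0.90 and 0.78 without dog 2716, which differed by 3.79 for CCL2. CCL2 differed by 0.38 ± 0.33 and 1.69 ± 0.33 (unadjusted p = 0.0143, adjusted p = 0.997 in limma), and it was higher in 4 of 6 sensitized and 6 of 6 nonsensitized animals. Before the patch, CCL2 had averaged 10.74 in sensitized and 10.03 in nonsensitized dogs, and at the saline site 11.12 and 11.72. CCL19 had averaged 8.66 and 8.00 before the patch, and 8.97 and 9.18 at the saline site. For CCL13 the differences were 0.62 ± 0.15 and 1.15 ± 0.15, and for SELE 0.19 ± 0.31 and 1.26 ± 0.31. For FCGR1A they were 0.39 ± 0.24 and 1.20 ± 0.24, and for UPP1 0.37 ± 0.18 and 1.00 ± 0.18. For CCL1 the means were 0.98 ± 0.23 in sensitized and 0.70 ± 0.23 in nonsensitized dogs, an order that rested on dog 2855, without which the sensitized mean was 0.67. Some falls had similar means in both groups, with -1.01 ± 0.19 and -1.02 ± 0.19 for ADAMTS5 and -0.96 ± 0.15 and -0.97 ± 0.15 for PPP1R2. Others were larger in nonsensitized dogs, with -0.65 ± 0.45 against -1.36 ± 0.45 for TYRP1, -0.49 ± 0.32 against -1.01 ± 0.32 for CYP2A7 and -0.60 ± 0.13 against -0.84 ± 0.13 for ITGA2B. Without dog 2845 the nonsensitized TYRP1 mean was -0.65, and without dog 2838 the sensitized CYP2A7 mean was -0.82 (without dog 2839 it was -0.13). Falls larger in sensitized dogs were those of NOS3, -0.73 ± 0.20 against -0.51 ± 0.20, and ADORA3, -0.90 ± 0.13 against -0.73 ± 0.13. For NOS3 the sensitized mean was -0.57 without dog 2841 or 2855, and the nonsensitized mean was -0.65 without dog 2704. The identifier with the smallest unadjusted p for the difference, TC55801, was higher by 0.11 ± 0.077 in sensitized and 0.71 ± 0.077 in nonsensitized dogs (unadjusted p = 8.33e-05, adjusted p = 0.997 in limma). Dog 2839 lowered its sensitized mean, with -0.25 where the other sensitized dogs lay at 0.11 to 0.31.

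**Figure D4:**
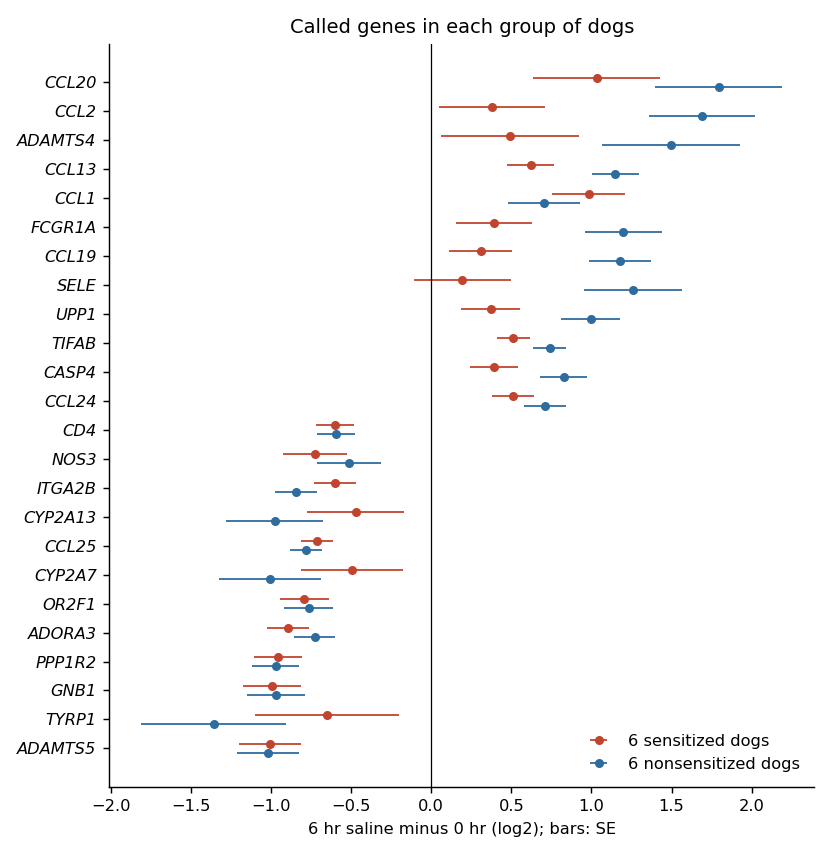
Difference of 6 hr saline minus 0 hr (log2, horizontal axis) of 24 called genes in 6 sensitized (red) and 6 nonsensitized dogs (blue), with SE bars. For most rises the blue point lies to the right of the red one (CCL2 1.69 against 0.38), whereas for ADAMTS5, GNB1, PPP1R2 and CD4 the points nearly coincide.

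The same genes were set beside the other patch sites, in 1 fit of 59 arrays with dog as a block and without slide. All these values share the untreated arrays, so that they are not independent of each other. The sites also differed in slide and scan day, which this fit does not adjust for, and their part in the order of the sites was not tested. CCL20 was above untreated skin by 1.43 ± 0.37 (SE) at 6 hr saline, 3.45 ± 0.37 at 6 hr allergen, 1.72 ± 0.37 at 24 hr saline and 2.02 ± 0.38 at 24 hr allergen sites. CCL2 was above it by 1.05 ± 0.36, 2.91 ± 0.36, 3.53 ± 0.36 and 2.43 ± 0.37 in the same order. For CCL13 the values were 1.00 ± 0.18, 1.80 ± 0.18, 1.76 ± 0.18 and 1.47 ± 0.18. In this fit the 6 hr saline site had the smallest mean of the 4 sites for these 3 chemokines, and CCL2 was highest at 24 hr saline sites. CCL24 and CCL1 did not follow that order: CCL24 was lowest at 24 hr saline sites (0.37 ± 0.20 against 0.67 ± 0.20), and CCL1 at both 24 hr sites (0.77 and 0.74 against 0.99). SELE stood at 0.75 ± 0.34 at 6 hr saline and 2.44 ± 0.34 at 6 hr allergen sites. S100A8, which was not called at 6 hr saline sites, stood at 1.85 ± 0.42 at 6 hr allergen, 2.24 ± 0.42 at 24 hr saline and 3.15 ± 0.43 at 24 hr allergen sites.

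For the falls, GNB1 stood at -0.97, -0.84, -1.77 and -1.55 in that order of sites, and ADORA3 at -0.83, -0.67, -1.21 and -1.10. ADAMTS5 did not follow that order, with -1.01 at 6 hr saline and 0.13 at 24 hr saline sites. NM_001190926.1 stood at -2.55 and -2.62 at the 6 hr and 24 hr saline sites and at -1.61 and -1.15 at the allergen sites. ENSCAFT00000020239 was higher by 1.43, 1.42, 1.59 and 1.27 in the order used above.

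**Figure D5:**
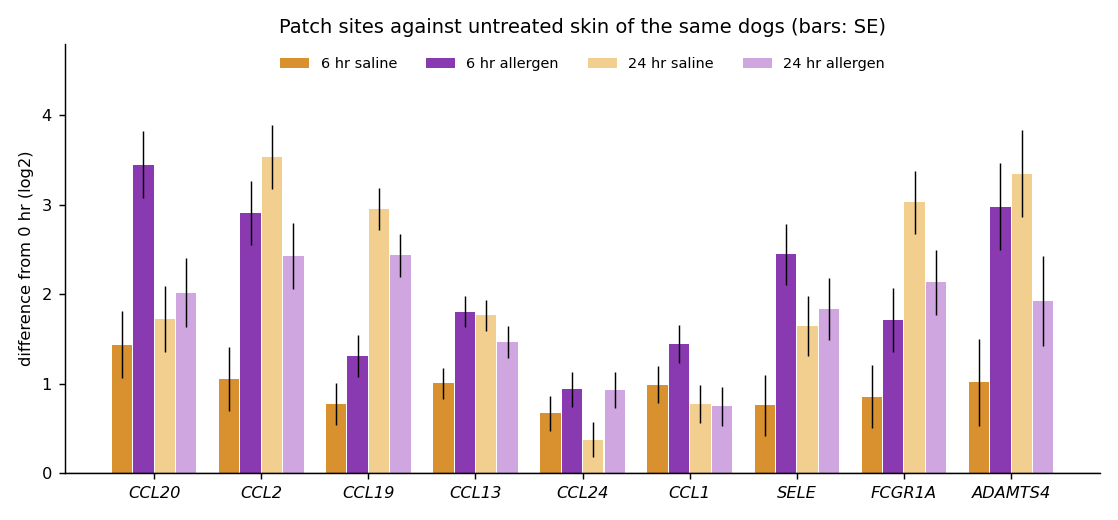
Mean difference from untreated skin (log2, vertical axis) of 9 genes at the saline and allergen sites of 6 and 24 hr, with SE bars from 1 fit of 59 arrays. The 6 hr saline bar is the lowest of the 4 for CCL20, CCL2, CCL19, CCL13, SELE, FCGR1A and ADAMTS4, but not for CCL24 and CCL1.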

How the data were processed

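RNA from 1 biopsy per dog and site was hybridized to 1-colour Agilent canine arrays. The deposited values are spot intensities (processed signal) from Agilent Feature Extraction 10.7.3.1, as named in the submitters' processing notes, which the authors stabilized for variance before their tests. Files for both arrays of dog 2847 lack the scan settings. Here the intensity of all noncontrol spots was variance-stabilized over 24 arrays (kept share 90%, 7 iterations) in Python 3.11.15 with numpy 2.4.6. Spots well above background on 10 of 12 arrays of either side were kept (44798 spots, 72.7%), flagged values were set missing (1707) and spots of 1 probe were averaged, leaving 43593 probes. 2400 of the kept spots passed through the untreated arrays alone and 121 through the saline arrays alone.

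limma 3.58.1 in R 4.3.3 fitted dog as a fixed block, and Benjamini-Hochberg adjustment ran over all probes. Same-numbered arrays come from 1 dog: after removal of group means their deviations correlated at 0.115 to 0.726 (12 of 12 above 0.1, median 0.295). For arrays of different dogs of 1 group the median was -0.100, with a highest value of 0.521 and 15 of 60 pairs above 0.1. The p-values measure the spread between dogs, and the number of arrays limits the precision. The main fits with slide or scan day as a block used 59 arrays in 10 groups, 1 array (specimen 14) being left out, and further such fits used the 24 arrays. Symbols came from RefSeq (assembly UU_Cfam_GSD_1.0, 1080 identifiers) and then from the study's own gene list (443 identifiers), which the study chose on these samples. Members and gene lists were chosen with earlier results of these data known.

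Named were the called genes with the largest rises (15, or as many as exist) and the 10 with the largest falls, moving one way in at least 10 of 12 dogs, called list members, up to 3 uncalled members per list by brightness, up to 2 called identifiers without symbol each way, and the identifier with the smallest p between groups of dogs. The probes called with slide as a block were added after their values were seen. Alternatives covered scaling, background correction, filter, dog, slide and scan-day blocks (the last added after seeing the data) and leaving out each dog. The scripts were tested on simulated data.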

Additional observations from a re-analysis of the deposited data

Results flagged for a closer look

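Among 214 sets of 6 values (named genes and identifiers in 1 group of dogs), 23 held a dog whose gap to its nearest neighbour, over the whole range, was above Dixon's critical value at 95%. Chance gives about 1 in 20 such sets.

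Dog 2716 (nonsensitized) accounted for 10 of them. Its differences (6 hr saline minus 0 hr, log2) were 4.83 for CCL20, 5.02 for ADAMTS4 and -1.77 for PPP1R2, where the other 5 dogs lay 0.51 to 1.74, 0.59 to 1.02 and -0.97 to -0.63. They were 1.86 for TIMP1 (others 0.12 to 0.76), 1.84 for MMP9 (0.37 to 0.80), 1.76 for MYC (0.053 to 0.52) and 1.11 for CEBPD (-0.32 to 0.05). Smaller gaps were 0.52 for TIMP2, 0.064 for KITLG and -0.18 for PPL.

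Dog 2838 (sensitized), whose 2 arrays shared a slide, accounted for 4. Its values were 0.45 for ADAMTS5 (others -1.56 to -0.92), -0.19 for PPP1R2 (-1.30 to -0.90), -0.093 for CCL25 (-0.98 to -0.69) and 0.18 for MSX2 (-0.72 to -0.39). The part of the slide in these gaps was not tested gene by gene.

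Single dogs stood apart in the other 9. Dog 2845 had -4.88 for TYRP1 (others -1.12 to 0.014) and -0.34 for SOX9, dog 2704 had 2.05 for MYH8 and 0.18 for XM_844068.1, and dog 2839 had -0.46 for SOD1 and -0.25 for TC55801. Dog 2855 had 0.80 for MRC1, dog 2802 0.51 for SDF2L1 and dog 2840 -0.81 for COL1A2.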

How the results depend on the processing

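Direction and call held for most of the 33 called named items under other scalings and filters and with slide as a random block (30 of 33). With slide or scan day as a fixed block in 59 arrays 6 of 33 did, and 2 or 1 turned direction. The cause was not tested. TC50714, XM_844068.1, XM_546783, ENSCAFT00000005464 and XM_532873.2 were among the 33 because they were called with slide. Their calls with slide were therefore fixed by that choice. Probes called (higher, lower, in sensitized dogs, in nonsensitized dogs) numbered 86, 949, 1159 and 1111. Quantile scaling gave 504, 1722, 2288 and 2291, normexp 48, 622, 741 and 685, and no filter 156, 2266, 2694 and 2610. Scaling to the 75th percentile gave 3804 lower, 4045 in sensitized and 3643 in nonsensitized dogs, and stabilization over 59 arrays 133 higher. No fold limit left 9904, 9468, 11067 and 10485. As a random block slide gave 71, 831, 994 and 911, with 5 cytokine genes called higher and 2 list genes called lower. Slide as a fixed block beside dog, which rests on the pair of dog 2838 alone and so tests no group, gave 7, 11, 20 and 9, slide without dog 14, 31, 43 and 25, and in 59 arrays slide gave 9, 4, 5 and 3 and scan day 29, 11, 23 and 12. Dog and scan day in 24 arrays gave 9 and 18. The dog as a block was the pairing used: unpaired, 72 probes were called higher, 874 lower, 986 in sensitized and 853 in nonsensitized dogs, and TYRP1, CYP2A7, CYP2A13 and NOS3 lost their calls. Between groups of dogs 3 probes passed at an unadjusted p below 0.002 and 1.5-fold. Cytokine genes called higher were 5, and 8 with quantile scaling, 1 with scan day in 59 arrays and 0 with the other fixed slide or scan-day blocks. List genes called lower were 3, with 5 at the 75th percentile, 1 unpaired, 1 with scan day in 59 arrays and 0 with the other fixed slide or scan-day blocks.

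Leaving out 1 dog gave 70 to 188 probes higher (188 without dog 2847), 790 to 1281 lower, 782 to 2284 in sensitized dogs (2284 without dog 2838), 824 to 1430 in nonsensitized dogs, 0 to 0 between groups, 5 to 7 cytokine genes higher and 1 to 4 list genes lower (1 without dog 2855). With normexp 9 of 33 called named items lost their call, and with slide as a random block ADAMTS4 (0.96, adjusted p = 0.0536), CD4 and SELE did.

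Among named genes with an adjusted p below 0.05, directions turned as follows. With slide in 59 arrays GNB1 was 0.0058, NFKB1 -0.10, STAT3 -0.092, CD4 0.011, KITLG 0.0093 and COL7A1 0.025, and with scan day GNB1 was 0.017, NFKB1 -0.15, STAT3 -0.036, KITLG 0.081 and COL7A1 0.025. With slide beside dog, which for these groups equals the difference within slide 6 (dog 2838), CCL2 was -0.0047, CCL1 -0.044, ADAMTS5 0.45, GNB1 0.28, CYP2A7 1.11, CYP2A13 1.00, FOSB 0.18, CCL27 -0.26, NFKB1 -0.052, STAT3 -0.076, CD4 0.17, CTLA4 -0.12, MS4A2 -0.30, NOS3 0.31, VWF 0.21, KRT1 -0.40, HSPB1 -0.019, PSMB9 -0.17, PSMB10 -0.026, VEGFA 0.16, TERT 0.27, PMEL 0.14, MLANA 0.0097, SOX9 0.15 and MSX2 0.18. With slide and no dog CCL2 was -0.054, ADAMTS5 0.33, GNB1 0.21, CYP2A7 0.085, CYP2A13 0.024, FOSB 0.28, CCL27 -0.14, CXCL16 -0.045, CD4 0.12, CTLA4 -0.027, NOS3 0.66, VWF 0.25, KRT1 -0.21, VEGFA 0.19, TERT 0.34, SOX9 0.32 and MSX2 0.23. No test within a single slide was possible, since slide 6 alone holds both sides and only 1 dog has both arrays there. Signals near background limit dim genes.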

Other observations

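In the 11 dogs with sides on different slides, the median difference of the 949 probes called lower lay between -1.09 and -0.55 in each dog, and that of the 86 probes called higher between 0.47 and 1.21, highest in dog 2716. In dog 2838 the medians were 0.010 and 0.17. Since the calls were made on these dogs, the values are a description.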
